A study of Mus musculus with 16 samples.

Results

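Trimethylation of lysine 27 of histone H3 (H3K27me3) was profiled in the activated (ASC) and quiescent (QSC) stem cells of C57BL/6 mouse skeletal muscle, and the regions described here are the narrow H3K27me3 peaks of QSC that no narrow H3K27me3 peak of ASC overlapped by even 1 bp. They were thus chosen by the measured H3K27me3 peak calls of both states. These QSC-only peaks numbered 15289 of the 44019 narrow peaks in the QSC list (34.7%). A broad H3K27me3 peak of ASC touched 14067 of them, and 1222 were touched by no ASC peak of either list and are called untouched (2.78% of all QSC narrow peaks). The other 28730 QSC narrow peaks are called shared. In the opposite direction, 35284 of 58454 ASC narrow peaks (60.4%) overlapped no QSC narrow peak and are called ASC-only. The study made 16 libraries by ChIPmentation, a chromatin immunoprecipitation in which a transposase adds the sequencing adapters. For ASC and then QSC, 2 libraries each were immunoprecipitated for H3K27me3 and 2 for trimethylated lysine 4 (H3K4me3), and each had a matched input. The labels used here state neither the age of the mice nor how cells were obtained and activated, nor whether replicates are separate animals. Both replicates of a mark and state were pooled into 1 list, so no value below has a replicate check or a test, and the read depth behind a list is unknown.

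H3K27me3 is laid down by Polycomb repressive complex 2, whose catalytic subunit is EZH2 or EZH1, and is read by Polycomb repressive complex 1. It covers silent developmental genes, often at CpG-rich promoters, and also spreads at low level over long intergenic and genic stretches. H3K4me3 marks the starts of active genes and, together with H3K27me3, poised ones. Muscle stem cells, or satellite cells, are quiescent in resting muscle and enter the cell cycle after injury. The defining satellite cell genes were marked in both lists: Pax7, Myf5, Vcam1, Calcr and Cdh15 all had an H3K4me3 narrow peak at the start in ASC and in QSC (5 of 5 each), and none had a QSC-only peak in or within 5 kb of its record. Among markers of other cells, H3K4me3 stood at the start in ASC and in QSC at 11 and 6 of 18 fibro-adipogenic genes, 7 and 5 of 18 endothelial genes, 3 and 4 of 20 immune genes, 7 and 9 of 13 pericyte and smooth muscle genes and 7 and 8 of 14 Schwann and glial genes. The share over all coding genes, against which these counts are to be read, was 57.0% in ASC and 54.4% in QSC. The part of other cell types in the results was not tested.

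Of all coding genes, 16 had an untouched peak within 1 kb of a start, and an untouched peak overlapped promoter windows of 5 of them. Promoters of 4 of the 5, picked after their values were seen because they are described below, are shown with the 250 bases before the start and CG dinucleotides in capitals. The fifth sequence is the promoter in the shared peak of highest fold that covers one, at Pdx1, a pancreatic homeobox gene, where that peak had a fold of 13.5. The sequences are from RefSeq on GRCm38.p6, at chr5:104434861-104435110 (plus strand), chr16:4639695-4639944 (plus), chr6:99266516-99266765 (minus), chr6:71262282-71262531 (minus) and chr5:147269847-147270096 (plus).
Spp1: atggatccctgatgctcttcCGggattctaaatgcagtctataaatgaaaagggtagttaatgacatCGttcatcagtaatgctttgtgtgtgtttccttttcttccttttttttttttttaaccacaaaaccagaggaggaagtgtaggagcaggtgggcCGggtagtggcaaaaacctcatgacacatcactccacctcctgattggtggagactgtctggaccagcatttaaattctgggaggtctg
Vasn: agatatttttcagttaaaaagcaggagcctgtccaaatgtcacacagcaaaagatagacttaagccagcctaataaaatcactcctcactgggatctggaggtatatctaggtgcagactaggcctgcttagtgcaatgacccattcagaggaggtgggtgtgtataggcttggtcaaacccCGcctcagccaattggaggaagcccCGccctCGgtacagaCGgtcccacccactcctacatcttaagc
Foxp1: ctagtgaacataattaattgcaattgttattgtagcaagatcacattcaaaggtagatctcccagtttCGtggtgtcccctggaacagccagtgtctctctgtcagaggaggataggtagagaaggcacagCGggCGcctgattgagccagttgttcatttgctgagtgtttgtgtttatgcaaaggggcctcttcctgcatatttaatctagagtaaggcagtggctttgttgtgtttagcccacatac
Smyd1: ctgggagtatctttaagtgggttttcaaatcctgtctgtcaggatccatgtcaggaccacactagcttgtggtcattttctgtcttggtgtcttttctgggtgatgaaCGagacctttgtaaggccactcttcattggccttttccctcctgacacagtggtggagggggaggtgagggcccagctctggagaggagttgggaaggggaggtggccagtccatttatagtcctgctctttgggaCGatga
Pdx1: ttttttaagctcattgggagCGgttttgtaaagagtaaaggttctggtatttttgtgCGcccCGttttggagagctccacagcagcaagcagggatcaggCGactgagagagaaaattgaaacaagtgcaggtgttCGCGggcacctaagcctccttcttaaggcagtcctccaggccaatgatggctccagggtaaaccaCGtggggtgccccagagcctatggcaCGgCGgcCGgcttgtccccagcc
The 4 untouched promoters held 3, 4, 3 and 2 CG dinucleotides, against 10 at Pdx1. Over the promoter windows of 300 bases that lay at least partly in a peak, the median ratio of observed to expected CpG was 0.306 for 81 windows in QSC-only peaks, 0.570 for 1046 windows in shared peaks and 0.373 for 595 windows in ASC-only peaks. The median over all 21263 coding promoter windows was 0.567. Median GC content followed the same order, at 50.7% in QSC-only peaks, 59.3% in shared peaks and 54.7% in ASC-only peaks. The motif CANNTG, bound by myogenic basic helix-loop-helix factors among others, was in 79.0%, 70.0% and 74.8% of these windows and in 69.0% of all; it equals its own reverse complement in form, so 1 strand covers both. The motif TGANTCA, the letters of an AP-1 site, likewise read on both strands, was in 13.6%, 5.93% and 7.90% of the windows and in 6.99% of all, but in none of the 5 sequences above.

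QSC-only peaks were shorter and lower than shared peaks, values that the choice of members touches and that are given as description. The median length was 560 bp in QSC-only peaks and 1007 bp in shared peaks, with longest peaks of 8022 and 19922 bp. The authors' fold enrichment over background had a median of 4.02 in QSC-only peaks and 4.81 in shared peaks, and the median −log10 q was 4.13 and 6.23. Untouched peaks were shorter still, at a median of 463 bp, with a median fold of 3.73. Folds in the QSC list moved in steps of 0.287, and 69.2% of QSC-only folds lay within 0.01 of a step of a whole multiple; the median QSC-only peak was 14 steps high, with quartiles of 13 and 16.

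**Figure D1:**
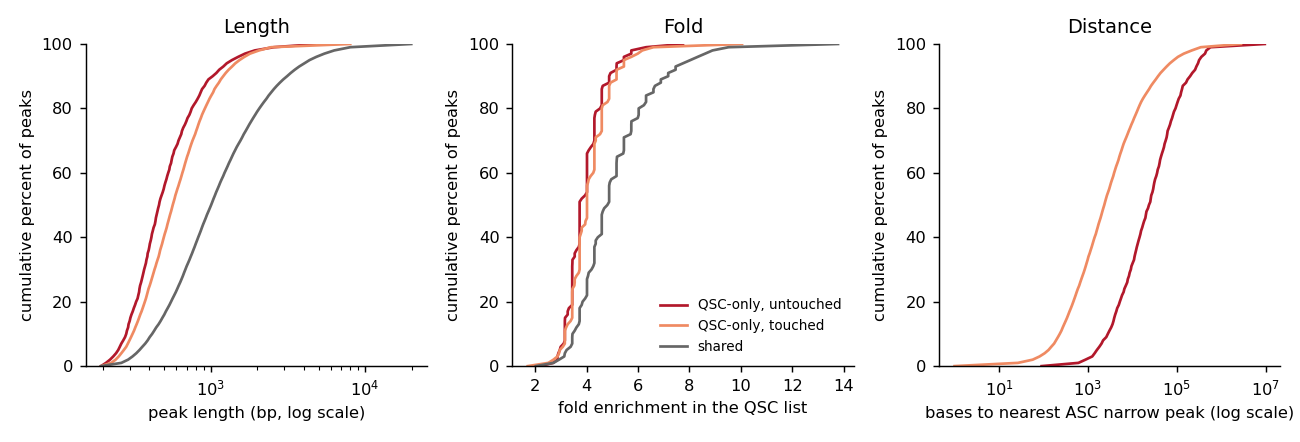
Cumulative percent of QSC narrow H3K27me3 peaks by length in bp, by the authors' fold and by bases to the nearest ASC narrow peak (distances of 0 are drawn at 1; shared peaks overlap an ASC peak and are left out there). Untouched peaks (median 463 bp) and touched peaks (median 568 bp) lie left of shared peaks (median 1007 bp); the distances, like the classes, come from ASC H3K27me3 calls and are a description.

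Most QSC-only peaks lay close to an ASC peak. The median distance to the nearest ASC narrow peak was 2754 bp, at 23654 bp for untouched peaks and 2338 bp for touched ones, classes that the ASC H3K27me3 calls themselves set apart. Of the QSC-only peaks 30.8% had an ASC narrow peak within 1 kb, 60.9% within 5 kb, and 1532 had none within 50 kb. Among untouched peaks the last group was 32.7%. At the edge of the rule, 6 QSC-only peaks abutted an ASC peak with 0 bp between, among them peaks near Hes1 (fold 5.74) and in Slc1a2 (fold 3.44), and 7 shared peaks were overlapped by 1 bp, such as those near Tspan18 (fold 4.88) and Gbp5 (fold 5.17). Within 100 bp of an ASC peak lay 535 QSC-only peaks (3.50%), and 568 shared peaks (1.98%) were overlapped by under 100 bp.

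Shared peaks were defined by an ASC narrow peak from the same libraries, so the ASC broad peaks behind each class are given as description and nothing is read from their difference. The ASC broad peak behind a touched QSC-only peak had a median fold of 2.07, a median −log10 q of 1.07 and a median length of 13846 bp, against 2.83, 3.08 and 30168 bp behind a shared peak. A −log10 q of 1 or more was reached by 53.5% and 96.4% of these broad peaks. ASC broad peaks covered 92.3% of the touched peaks whole. Counting ASC broad peaks of −log10 q of 1 or more alone, the share of QSC-only peaks touched was 49.2%.

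QSC-only peaks stood mostly away from gene starts. Within 1 kb of a coding start lay 353 QSC-only peaks (2.31%), against 3074 shared peaks (10.7%) and 2066 ASC-only peaks (5.86%). The median distance to a coding start was 32686 bp for QSC-only peaks, 13716.5 bp for shared peaks and 24210 bp for ASC-only peaks. Untouched peaks lay inside coding gene records more often than the other classes: 631 of 1222 (51.6%), against 34.1% of touched, 39.2% of shared and 37.2% of ASC-only peaks. Most QSC-only peaks (92.9%) lay in a QSC H3K27me3 domain of 10 kb or more, built by merging QSC broad peaks over gaps of up to 3 kb, against 95.9% of shared peaks. Of the QSC-only peaks 71.2% lay in a domain that also held a shared peak, at 49.3% for untouched and 73.1% for touched peaks. By autosome, the share of QSC narrow peaks that were QSC-only ran between 27.9% on chromosome 19 and 42.9% on chromosome 18. The untouched share ran between 1.46% on chromosome 11 and 6.38% on chromosome 10, where 104 of 1630 peaks were untouched.

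H3K4me3 came from other libraries and played no part in choosing the peaks. An ASC H3K4me3 narrow peak overlapped 164 QSC-only peaks (1.07%) and a QSC one overlapped 55 (0.36%). The 164 held 110 that were marked in ASC alone, and 1 peak was marked in QSC alone. Shared peaks carried H3K4me3 in ASC alone at 659 and in QSC alone at 82 peaks, and ASC-only H3K27me3 peaks at 214 and 91. Of the 1222 untouched peaks 26 overlapped H3K4me3 in ASC (2.13%) and 7 in QSC (0.573%), 19 of them in ASC alone and 0 in QSC alone. The H3K4me3 narrow list of ASC covered 35427498 bp and that of QSC 24421313 bp. With the broad H3K4me3 lists the order of the states was opposite, at 3.37% of QSC-only peaks in ASC and 14.3% in QSC; those lists held 29297 peaks in ASC and 184538 in QSC.

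**Figure D2:**
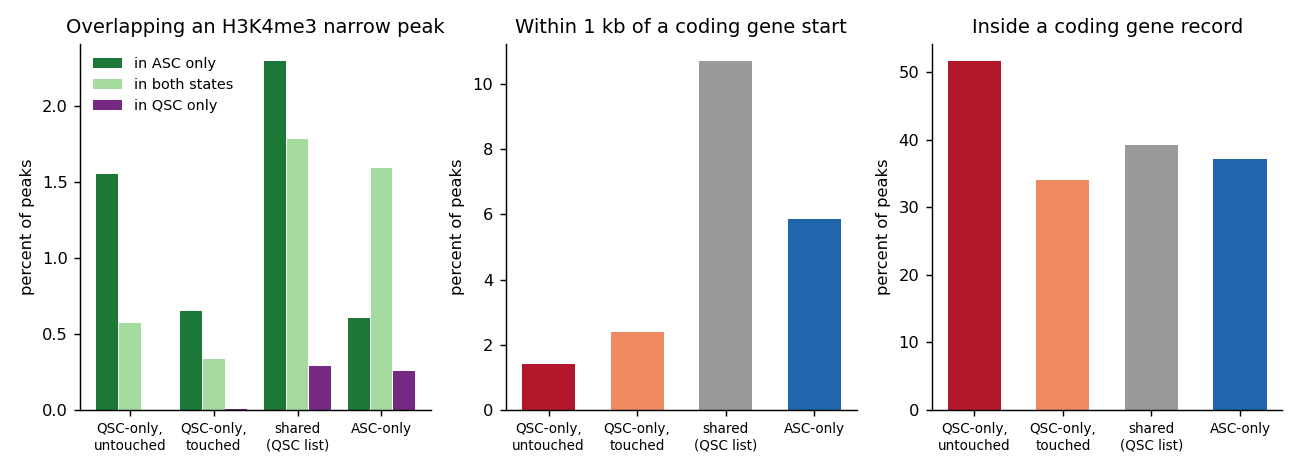
Percent of H3K27me3 narrow peaks, in 4 classes, that overlap an H3K4me3 narrow peak in ASC only, in both states or in QSC only (left), lie within 1 kb of a coding start (middle) or inside a coding gene record (right). Untouched peaks are marked by H3K4me3 in ASC only at 1.55% and in QSC only at 0%, are fewest at starts (1.39%) and most often in gene records (51.6%).

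Hmga2, which encodes an AT-hook chromatin protein of embryonic and proliferating cells, held the most untouched peaks of any coding gene record. Its record (chr10:120361268-120476469, minus strand, 115202 bp) held 0 ASC and 40 QSC narrow peaks, and 33 of the 40 QSC-only peaks were untouched. Broad H3K27me3 peaks covered 10.2% of the record in ASC and 97.3% in QSC. H3K4me3 narrow peaks covered 5754 bp of it in ASC and 1442 bp in QSC, and the highest H3K4me3 fold in the record and 5 kb either side was 46.4 in ASC and 6.05 in QSC. The median H3K4me3 fold of all narrow peaks was 16.3 in the ASC list and 10.4 in the QSC list, so folds of the lists are on unlike scales. In that wider window 43 of 44 QSC peaks were QSC-only, with folds between 2.58 and 8.90. The strongest of them, at chr10:120472148-120474489 just inside the gene, was touched by an ASC broad peak and overlapped the ASC H3K4me3 peak. The untouched peak of highest fold in the record (7.35) spanned chr10:120404844-120408998, 69549 bp from the start, and lay 54114 bp from any ASC narrow peak.

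The gene sits in the longest merged H3K27me3 domain of QSC, chr10:120235235-120775984, of 540750 bp. The domain held 76 ASC and 139 QSC narrow peaks, of which 89 were QSC-only and 45 untouched. Untouched peaks were unevenly placed along it: the 299515 bp upstream of the gene held 35 ASC and 66 QSC peaks, 11 of them untouched, and the 126033 bp downstream held 41 ASC and 33 QSC peaks, 1 of them untouched. ASC broad coverage was 57.1% upstream, 10.2% in the record and 94.3% downstream, against QSC coverage of 91.5%, 97.3% and 100%. The domain was built by merging QSC broad peaks, so its high QSC coverage is set by construction. Nothing is read from the difference between the states there. Leaving out chromosome 10, 14634 QSC-only peaks remain.

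**Figure D3:**
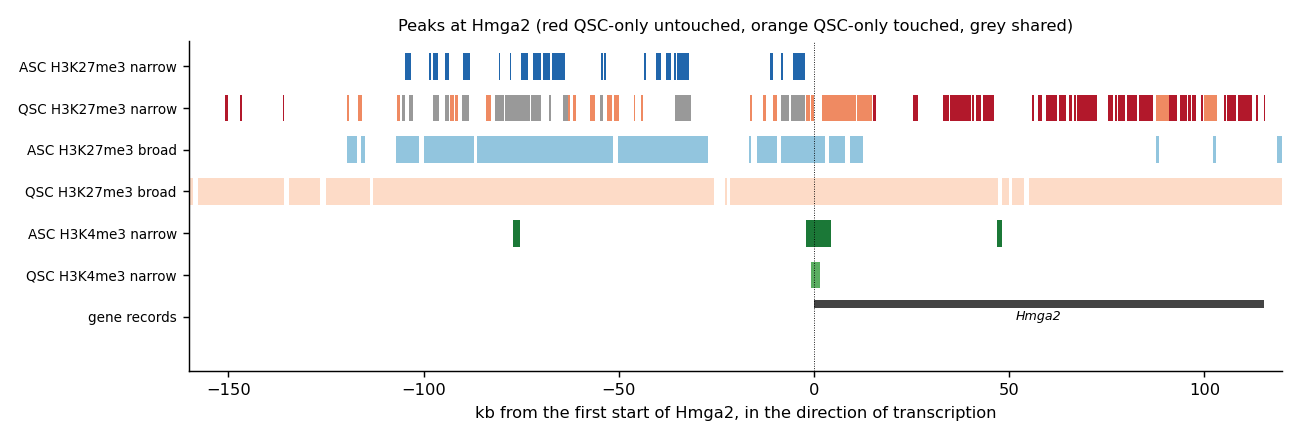
Peaks around Hmga2 by distance in kb from its first start in the direction of transcription, with ASC tracks above QSC tracks; QSC narrow peaks are red where untouched, orange where touched by an ASC broad peak and grey where shared. The gene body holds red and orange QSC peaks with 0 ASC narrow peaks, while ASC narrow peaks stand upstream.

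Other gene records with many untouched peaks, ranked after their values were seen, are given with ASC counts and coverage before QSC ones. Untouched peaks are by rule free of ASC broad peaks. This ranking therefore favours low ASC and high QSC broad coverage, at Hmga2 too, and the coverage is given as description. Over the whole lists, H3K27me3 broad peaks covered 516599097 bp in ASC and 455232535 bp in QSC. Parvb, encoding a parvin of focal adhesions, held 0 ASC and 18 QSC narrow peaks, 16 of them untouched, and broad peaks covered 5.39% in ASC and 94.6% in QSC. Runx2, the osteoblast transcription factor, held 0 and 16 narrow peaks, 14 of them untouched, with broad coverage of 7.08% in ASC and 55.6% in QSC. Its H3K4me3 peaks covered 8225 bp in ASC and 4251 bp in QSC. Dok7, whose product activates the receptor kinase MuSK at the neuromuscular junction, held 1 and 12 narrow peaks, 10 untouched, with broad coverage of 9.64% and 96.5%. Col27a1, a fibrillar collagen gene, held 2 and 34 narrow peaks, 15 untouched, with broad coverage of 34.8% and 79.5%. Coro7, Chsy1 (a chondroitin synthase), Cemip2, Dock4 (a guanine nucleotide exchange factor of Rac) and Galnt10 (an enzyme of O-glycosylation) held 0 ASC narrow peaks against 11, 7, 6, 6 and 14 QSC ones, all QSC-only. Of 1787 coding gene records with 3 or more QSC narrow peaks, 61 (3.41%) had only QSC-only peaks and no ASC narrow peak.

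The records with the most QSC-only peaks were in part the same, with 40 such peaks in Hmga2 and 31 in Col27a1. Most of the records in this ranking kept ASC narrow peaks. Alk, a receptor tyrosine kinase gene, held 26 ASC and 84 QSC narrow peaks, of which 65 were QSC-only and 9 untouched. Dab1, an adaptor of reelin signalling, held 29 and 71, of which 57 were QSC-only. Slit3, a ligand of Robo receptors, held 111 and 113 narrow peaks, 49 of them QSC-only and 0 untouched, and its broad coverage was 90.2% in ASC and 88.0% in QSC. Aff3, Cacna2d3 and Ldlrad3 held 52, 48 and 43 QSC-only peaks. Counts per record, here and above, were not scaled to record length, and long records have more room for peaks. Alk, Dab1 and Slit3 span 735715, 1125345 and 587052 bp, against a median of 17169 bp over coding genes. The strongest touched peak was an intergenic one near Tle1 (chr4:72371903-72377599, fold 10.04), which lay in an ASC broad peak. The longest QSC-only peak, of 8022 bp, lay in Tkt, the transketolase gene (chr14:30550349-30558370, fold 7.08), and overlapped H3K4me3 in ASC.

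**Figure D4:**
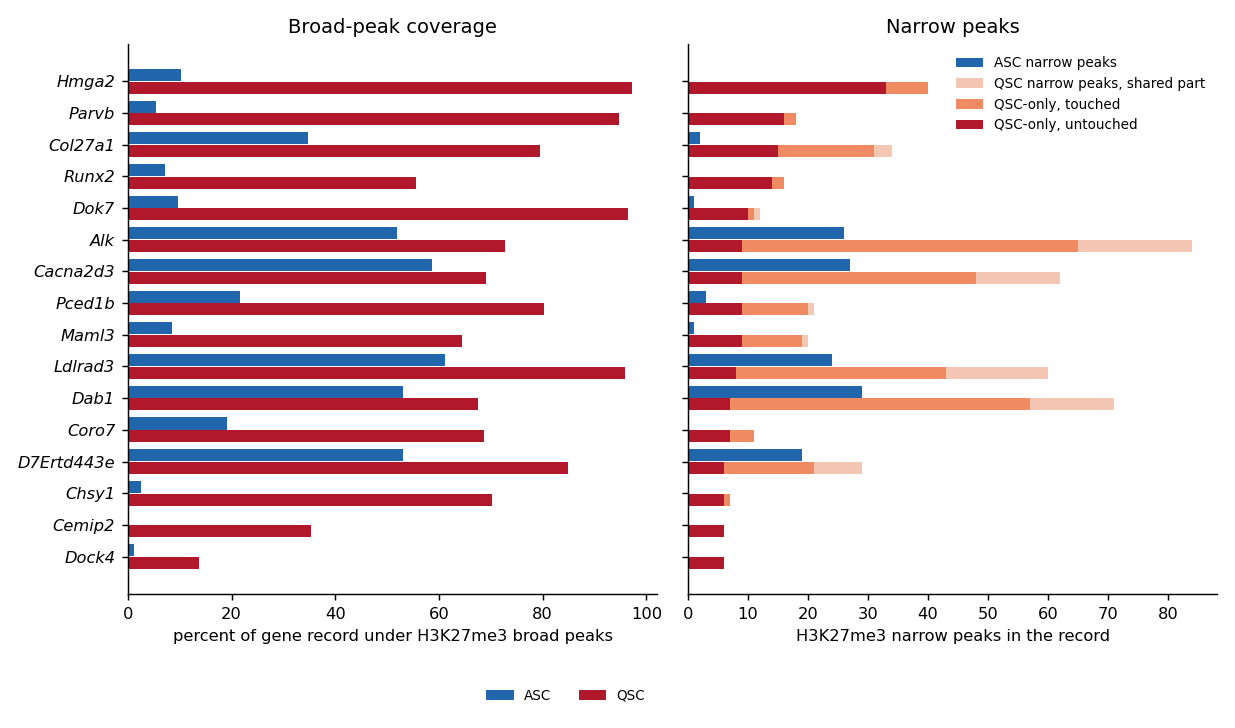
The 16 coding gene records with 6 or more untouched peaks, by percent of the record under H3K27me3 broad peaks (left, ASC above QSC in each pair) and by number of narrow peaks (right, QSC bars coloured by class). Hmga2 stands at 10.2% in ASC and 97.3% in QSC, while Alk and Dab1 keep 26 and 29 ASC narrow peaks. Choosing records by untouched peaks favours low ASC coverage.

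At gene starts, 322 of 21887 coding genes had a QSC-only peak within 1 kb (1.47%), 16 had an untouched one (0.0731%) and 2082 had a shared one (9.51%). Of the 322, 93 also had a shared peak at the start. By the narrow lists, H3K4me3 was at the start of 34 of them in ASC alone, of 3 in QSC alone, of 84 in both and of 201 in neither. Starts with no ASC H3K27me3 peak of either list and an untouched peak were those of Spp1, Vasn, Foxp1, Dntt, Tnc, Enthd1 and Prss56. Spp1, Vasn, Tnc and Nr4a2 had an untouched peak that overlapped H3K4me3 in ASC alone.

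Spp1 encodes osteopontin, a secreted matrix protein, and Tnc encodes tenascin-C, a matrix glycoprotein of healing tissue. The start peak of Spp1 (chr5:104435403-104437305, 1903 bp) had the highest fold of all untouched peaks, 7.75, and lay 10311 bp from any ASC narrow peak. A second untouched peak ended before the start, with a fold of 4.30. In the record and 5 kb either side, broad H3K27me3 covered 13.1% in ASC and 87.0% in QSC, and H3K4me3 had 1 narrow peak in ASC (1991 bp, fold 7.59) and 0 in QSC. At Tnc (chr4:63959785-64047015, minus strand), 2 untouched peaks of folds 4.59 and 4.02 lay 134578 bp or more from an ASC narrow peak. Broad coverage over Tnc and 5 kb either side was 15 bp in ASC and 22899 bp in QSC, and H3K4me3 had 1 narrow peak of 4342 bp and fold 12.6 in ASC and 0 in QSC. Vasn, a membrane glycoprotein gene whose product binds TGF-beta, lies inside the Coro7 record. Its start peak (chr16:4637471-4641602, 4132 bp) had a fold of 6.03, and H3K4me3 had 1 narrow peak of fold 11.2 in ASC and 0 in QSC. Over Vasn and 5 kb either side, broad H3K27me3 covered 34.3% in ASC and 92.7% in QSC. Of 6 QSC-only peaks there 3 were untouched, and the highest fold, 8.61, was of a touched peak. The broad H3K4me3 lists, in the record and 5 kb either side, had 1 peak in ASC and 1 in QSC at Spp1, 2 and 7 at Tnc, and 1 and 2 at Vasn.

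Nr4a2, an immediate early nuclear receptor gene, differed between the lists in only part of its peak calls. An untouched peak of 1497 bp and fold 4.30 lay by its start, while 6 ASC and 10 QSC narrow peaks lay in the record and 5 kb either side. Broad coverage there was 62.2% in ASC and 79.3% in QSC, and H3K4me3 was present in both, covering 8056 bp in ASC and 4697 bp in QSC. Smyd1, a muscle methyltransferase gene, had an untouched start peak of fold 3.73, but its broad coverage was 38.5% in ASC and 35.3% in QSC and neither narrow list had H3K4me3 there, while the broad H3K4me3 lists had 0 peaks in ASC and 6 in QSC. Foxp1, a forkhead factor gene, held 8 QSC-only peaks and 0 ASC narrow peaks in and around its record, with broad coverage of 1.24% in ASC and 10.3% in QSC. The Foxp1 start whose promoter is shown above lies inside the record (chr6:98925342-99522746, minus strand), not at its upstream end.

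Untouched peaks also met H3K4me3 within or just upstream of several other genes. At Cdk6, a kinase that acts with D-type cyclins, 3 untouched peaks of folds 4.53, 4.36 and 3.44 overlapped an ASC H3K4me3 peak of 6894 bp. Those of folds 4.36 and 3.44 also overlapped the longest QSC H3K4me3 peak there, of 4059 bp. At Sema7a, a semaphorin gene, the longest H3K4me3 peak was 5866 bp in ASC and 1553 bp in QSC, and 0 ASC and 6 QSC narrow H3K27me3 peaks lay in the record and 5 kb either side, 5 of them untouched. At St8sia2, a polysialyltransferase gene, 2 untouched peaks of fold 4.59 each overlapped an H3K4me3 peak of 4040 bp in ASC, while the QSC H3K4me3 peak of 1997 bp did not reach them. Tead4, a TEA-domain factor gene, had a longest H3K4me3 peak of 5050 bp in ASC and 1818 bp in QSC, and its untouched peak at H3K4me3 had a fold of 2.88. In these genes H3K4me3 was called in both narrow lists, with the longer peak in ASC. They were named for an untouched peak at ASC H3K4me3, a choice that favours long ASC peaks. Over the whole narrow lists, 15869 H3K4me3 peaks covered 35427498 bp in ASC and 14354 covered 24421313 bp in QSC. The longer ASC peak is therefore not read as particular to these genes.

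**Figure D5:**
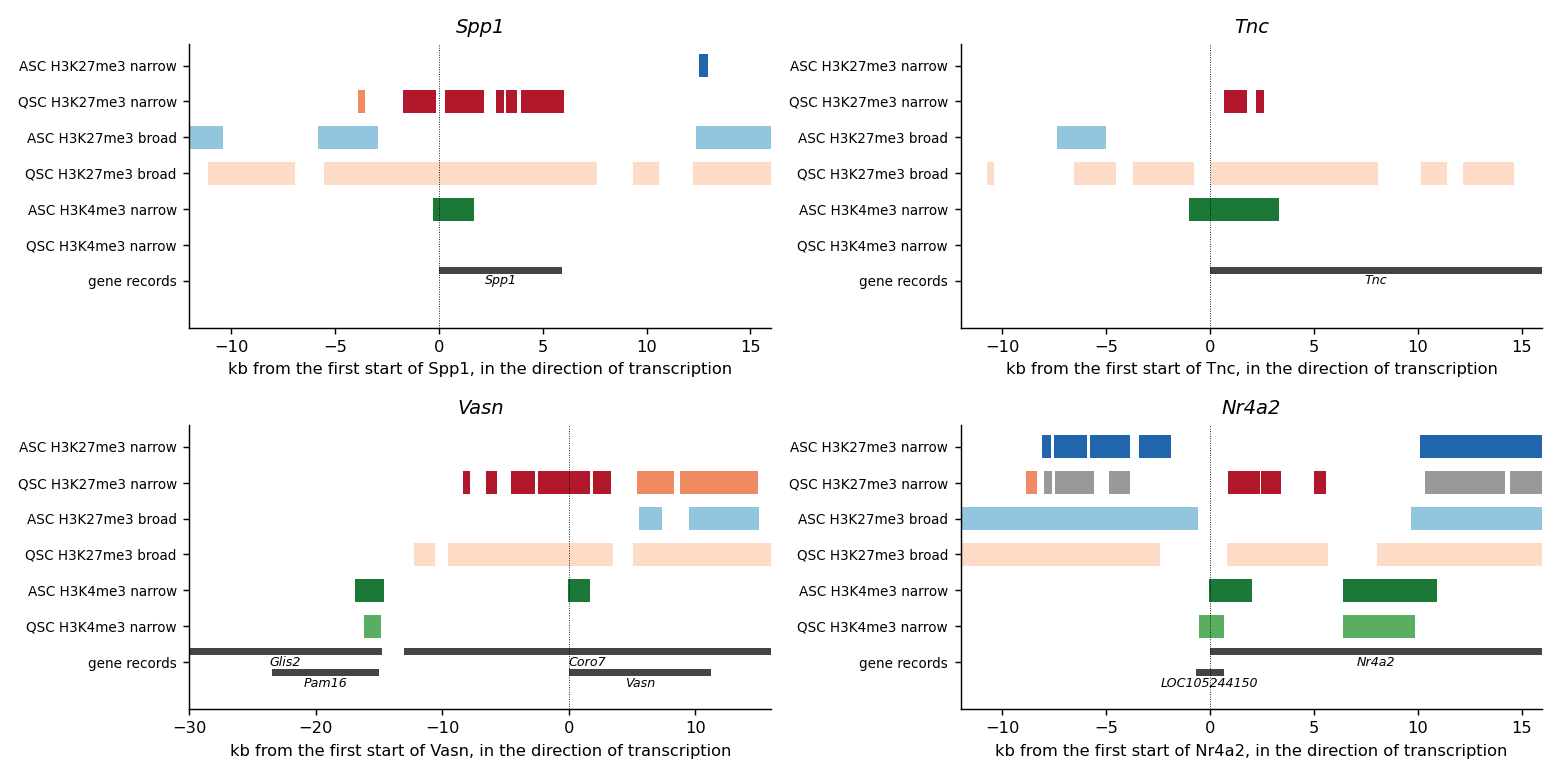
Peaks at Spp1, Tnc, Vasn and Nr4a2 by distance in kb from the first start in the direction of transcription, with each ASC track above its QSC track and QSC narrow peaks coloured as untouched (red), touched (orange) or shared (grey). Spp1, Tnc and Vasn have an H3K4me3 narrow peak at the start in ASC and none in the QSC narrow list; Nr4a2 has one in both states and keeps ASC narrow peaks on either side of its untouched peaks.

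Genes with an untouched peak in or within 5 kb of the record numbered 400 of 21887 (1.83%), and 3010 had a QSC-only peak there (13.8%). Split by H3K4me3 narrow peaks at the start, a split chosen after values were seen, an untouched peak lay at 45 of 721 genes marked in ASC alone (6.24%), 227 of 11755 marked in both (1.93%), 3 of 161 marked in QSC alone (1.86%) and 125 of 9250 marked in neither (1.35%). The median record length was 23282 bp in the first class, 24481 bp in the second, 18129 bp in the third and 9028.5 bp in the last. The classes were thus not matched for length, and the window searched grows with the record. Among genes with a QSC narrow peak in that window the shares were 10.5%, 7.82%, 4.35% and 4.76%, and 6.64% over all such genes. The share of those genes with no ASC narrow peak in the window ran otherwise. It was 4.43% of genes marked in ASC alone, 15.6% in both, 1.45% in QSC alone and 7.58% in neither. Over all genes with a QSC narrow peak there it was 11.2%.

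Read by pathway, few listed genes had a QSC-only peak at the start, and the 1.47% of all coding genes is the level to read them against. Of 57 extracellular matrix genes 2 did, Tnc and Spp1, both untouched, while 8 had a shared peak. Of 34 immediate early genes 2 did, Egr3 and Nr4a2, while 3 had a shared peak. The Egr3 peak was touched by an ASC broad peak and lay 59 bp from an ASC narrow peak. Of 44 genes of BMP, TGF-beta and activin signalling 2 did, while 10 had a shared peak. They were Fst, the follistatin gene, and Chrdl1, a BMP antagonist gene. Fst had 4 ASC narrow peaks and 0 untouched peaks in or within 5 kb of its record. Broad coverage there was 84.0% in ASC and 93.3% in QSC. Wnt10a stood alone among 47 Wnt genes, Fgf15 among 29 FGF genes and Isl1 among 60 neural regulators, where shared peaks stood at 24, 11 and 58 starts. None was at a start of the 34 quiescence and identity genes, 29 myogenic regulators, 45 sarcomere genes, 26 Notch genes, 45 cell cycle genes or 37 Polycomb and Trithorax genes, and shared peaks stood at 1, 3, 2, 9, 1 and 2 of them. Keratin genes had 5 of 49 and potassium channel genes 4 of 92, while shared peaks stood at 17 and 39 of these starts. QSC narrow peaks of any class stood at 40.8% and 45.7% of them, against 10.6% of all coding genes. Counting untouched peaks in or within 5 kb of the record, where the share of all genes is 1.83%, matrix genes had 4 of 57 (Col4a4, Lama1, Tnc and Spp1) and cadherin genes 4 of 23 (Cdh1, Cdh2, Cdh4 and Cdh6). T-box genes had 1 of 13 and potassium channel genes 4 of 92, while Notch genes had 0 of 26. This window grows with the record: Cdh4 and Cdh2 span 456955 and 220370 bp, against a median of 17169 bp over coding genes. The Cdh2 peak had a fold of only 2.58.

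Of 1005 annotated microRNA hairpins 16 were overlapped, some only in part, by 9 QSC-only peaks, all touched by an ASC broad peak, and 41 were overlapped by shared peaks. A peak of 824 bp on chromosome X (chrX:52741655-52742478, fold 4.88), 41 bp from an ASC narrow peak, spanned the 5 hairpins Mir363, Mir92-2, Mir19b-2, Mir20b and Mir18b of the miR-106a cluster. Their main mature forms are shown because 1 peak covers them all, with the seed (bases 2 to 8) in capitals, from RefSeq on GRCm38.p6, minus strand; the first pair share the seed AUUGCAC.
mmu-miR-363-3p: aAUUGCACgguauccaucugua
mmu-miR-92a-3p: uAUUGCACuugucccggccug
mmu-miR-19b-3p: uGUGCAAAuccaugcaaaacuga
mmu-miR-20b-5p: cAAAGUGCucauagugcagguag
mmu-miR-18b-5p: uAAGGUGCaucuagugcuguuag
A further 6 hairpins lay in the imprinted Dlk1-Dio3 region of chromosome 12, in peaks of folds between 3.81 and 5.17. They were Mir433, Mir882, Mir381, Mir487b, Mir382 and Mir134.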

How the data were processed

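Peak lists were deposited for H3K27me3 and H3K4me3 in ASC and QSC, as 8 pooled lists (1 narrow and 1 broad per mark and state). Per the submitters' processing notes, the build was mm10 and the tools named include MACS2 2.1.1 and Bowtie2 2.3.2; settings are not given. The authors' fold enrichment over background (a ratio) and −log10 p and q of each peak, as deposited, describe and rank peaks within a list. In the QSC H3K27me3 narrow list peak names count up to 178959 and 24.6% of those numbers are present, by a filter that is not stated. H3K4me3 folds given for both states come from separate lists and their difference is not read as a change.

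Here peaks were compared by overlap of at least 1 bp (Python 3.11.15, numpy 2.4.6, pandas 2.3.3), and the overlap code was tested on simulated intervals. Gene starts came from RefSeq promoters for 17492 of 21887 coding genes, with both record ends for the other 4395. Peaks are named by the nearest coding start or the record that holds them; named peaks are those of highest fold or length in each class, and genes are list members with a QSC-only peak at the start. Members and lists were chosen with earlier results of these data known. Each list is 1 pooled sample, so no test was made.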

Additional observations from a re-analysis of the deposited data

How the results depend on the processing

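No paired analysis was possible because each list pools both replicates, so leaving out a replicate could not be run either. The difference between QSC-only and shared peaks kept its sign in every alternative tried for H3K4me3, starts, gene records and long domains; for ASC broad contact the choice of members fixes the sign. QSC-only peaks numbered 5972 when an ASC peak within 5 kb counted as shared, 4762 at −log10 q of 5 or more, 6556 with both lists at that limit, and 1226 or 1222 against ASC broad peaks alone or with narrow ones. The share touched by ASC broad was 93.4% at 50% overlap, 88.7% with ASC peaks within 1 kb as shared, 94% at the q limit, 89.6% when 50% had to be covered, and 49.2% for ASC broad peaks of −log10 q of 1 or more, a choice added after seeing the data. H3K4me3 overlap was 1.51% in ASC at the q limit and 0.227% in QSC with peaks within 1 kb as shared; it was 3.37% in ASC and 14.3% in QSC with broad lists, and 2.3% and 1.11% within 1 kb. The share at starts was 1.83% with peaks within 1 kb as shared, 1.36% within 500 bp, 6.24% within 2.5 kb, 7.14% for all genes, and, added later, 3.75% for both record ends and 1.56% for promoter table genes. The share in gene records was 36.3% and 37.4%, with peaks within 1 kb as shared and at the q limit. The share in long domains was 93.3% at 50% overlap, 91.7% with peaks within 1 kb as shared, 95.6% at the q limit, and 77.6% and 98.4% with merging over 1 kb and 10 kb. Genes with a QSC-only peak at the start numbered 197 within 500 bp, 815 within 2.5 kb, 16 for untouched peaks and 3010 for the record and 5 kb either side. The cause was not tested for any of these. At −log10 q of 5 or more, Hmga2 kept 33 of 40 QSC-only peaks, Parvb 7 of 18, Runx2 8 of 16, Dok7 2 of 11 and Spp1 1 of 4. Depth is unknown and limits what can be called absent in ASC.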
